A study of Mus with 14 samples.

Results

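Maturing neutrophils were taken here as the cells in which transcripts of 2 secondary granule genes, Camp and Ngp, were abundant. Of 70038 cells kept from 14 libraries, 1738 (2.48%) had at least 10 unique molecular identifiers (UMIs, counts of single captured transcripts) of Camp, at least 10 of Ngp and none of the B-cell gene Cd79a. The limits for keeping a cell were 1000 UMIs, 500 detected genes and less than 10% mitochondrial UMIs. These 3 genes chose the cells, so their levels are descriptions. The other 3 genes that mark this stage, Ltf, Lcn2 and S100a8, were not used to choose the cells, and all 3 were higher in them than in granulocyte progenitors in each of the 11 libraries with at least 20 of these cells. The markers of the label were thus all present in the summed cells. This too is a description, since the progenitors were taken from outside the set.

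Neutrophils fill their granules in waves. Primary granule proteins such as myeloperoxidase and neutrophil elastase are made first, in promyelocytes. Secondary granule proteins such as lactoferrin and the cathelicidin antimicrobial peptide follow in myelocytes, under the transcription factor C/EBP epsilon. Gelatinase granule proteins and the receptors of the mature cell come last, when division has stopped.

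The series asked how the receptors for tumour necrosis factor alpha act in Dnmt3a-mutant haematopoiesis in mice. All 14 mice were aged CD45.1+ hosts, lethally irradiated and given bone marrow of primary transplant recipients, and each was harvested after 20 weeks. Donor-derived Lin-Kit+CD45.2+ cells were sorted from each mouse, so that shares below are shares of this sort and not of the whole marrow. For each mouse 12000 cells were loaded on 1 lane of a 10x Chromium chip, with 6000 cells targeted. The donor genotypes were MxCre (3 mice), Dnmt3a (4 mice), Dnmt3a;Tnfr1KO (3 mice) and Dnmt3a;Tnfr2KO (4 mice). Mx-Cre is a recombinase that interferon induces, and primary recipients received poly(I:C), an interferon inducer, to switch it on. The labels do not spell out the Dnmt3a allele. The last 2 groups carry a loss of TNF receptor 1 (gene Tnfrsf1a) or 2 (gene Tnfrsf1b) beside the Dnmt3a allele and are called Tnfr1KO-labelled and Tnfr2KO here. Which primary recipient fed which host is not labelled. If hosts within a genotype had a common source, the SDs and p-values measure only the spread between these mice.

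Libraries held 62416022 to 162869740 UMIs, and kept cells had a median of 11275 to 39561 UMIs. A pair of Dnmt3a libraries stood apart before any comparison. Dnmt3a replicate 1 kept 1955 of 7257 barcodes, and Dnmt3a replicate 4 had the lowest median depth and 2226 of the 3252 cells with B-lineage transcripts. For the shares and ratios of cells, the called gene and the erythroid gene list, values without Dnmt3a replicate 4 are given too. The medians of the other gene lists in comparisons with Dnmt3a are given only with it. At most 17 kept barcodes were shared by any of the 91 pairs of libraries, and 0 barcodes of Camp/Ngp cells were shared. In Cebpe-positive granulocyte progenitors, defined below, Tnfrsf1b was at 4.01 to 6.29 counts per 1000000 UMIs in the Tnfr2KO libraries and at 13.6 to 23.4 in the other 10. Tnfrsf1a was at 39.5, 40.2 and 41.8 in the Tnfr1KO-labelled libraries and at 45.9 to 72.6 in the other 11. Both targeted genes were thus lowest in the libraries labelled for them, with Tnfrsf1a still well above 0. Where the deletion lies relative to the counted 3' end is not given in the sources used here.

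The Camp and Ngp thresholds fell in a sparsely filled region. Over all 1738 cells the median was 486 Camp UMIs and 380.5 Ngp UMIs per cell, and the highest values were 4634 and 2371. Only 54 cells had fewer than 20 UMIs of either gene. These cells just inside had a median of 15 Camp, 19 Ngp and 2 Ltf UMIs and a depth of 4416.5 UMIs. The 69 cells just outside, with at least 5 UMIs of both genes but not 10 of both, had a median of 8 Camp, 8 Ngp and 0 Ltf UMIs and a depth of 4164 UMIs. The other 1684 cells had medians of 502 Camp, 391 Ngp and 78 Ltf UMIs. A further 44 barcodes met the Camp, Ngp and Cd79a limits but failed the limits on depth, genes or mitochondrial share. In erythroid cells, which should lack both genes (2151 cells with at least 5 Klf1 UMIs), 5 cells (0.232%) reached both thresholds.

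**Figure D1:**
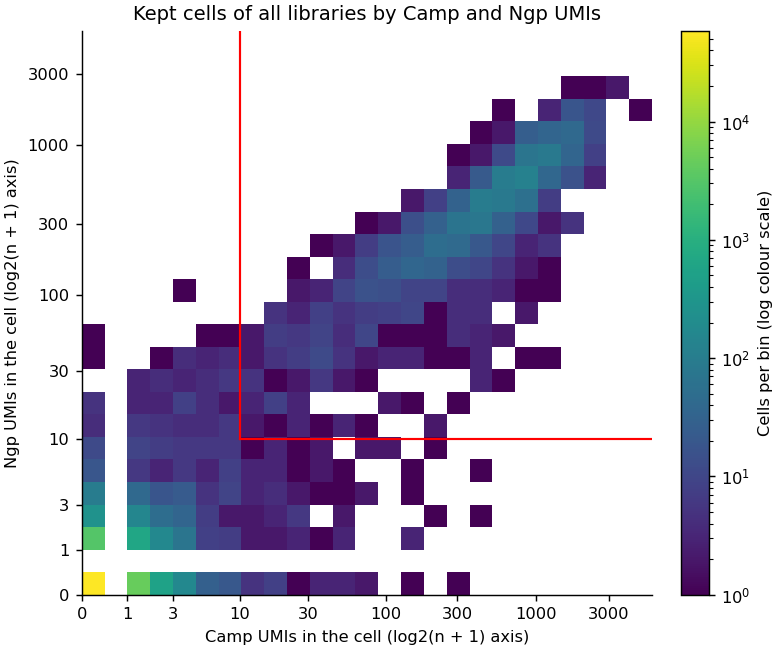
Kept cells of all 14 libraries binned by their Camp UMIs (x) and Ngp UMIs (y), both on log2(n + 1) axes, with colour for the number of cells per bin on a log scale; red lines mark 10 UMIs of each gene. Most cells sit at 0, and the cells beyond both lines form a cloud around the medians of 486 Camp and 380.5 Ngp UMIs; cells with Cd79a UMIs are drawn too.

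Levels were then described per library as counts per 1000000 of the UMIs summed over these cells (CPM). They were set beside the same sums over 20270 Cebpe-positive granulocyte progenitors, which are kept cells outside the set with at least 10 UMIs of Mpo and of Elane, at least 1 of Cebpe and none of Cd79a. The progenitors were thus chosen for Mpo, Elane and Cebpe. Neither side gives a test, because the rules fixed which cells were compared. UMIs count transcript 3' ends, so CPM carries no length term. All CPM values below are means ± SD over the 11 libraries with at least 20 Camp/Ngp cells, unless a library is named.

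Just 6 genes carried a large part of the RNA. Camp, Ngp, Ltf, Lcn2, S100a8 and S100a9 together took 25.2% (Dnmt3a replicate 3) to 39.02% (Tnfr1KO-labelled replicate 3) of all UMIs in these cells, against 0.0575% to 0.204% in the progenitors. S100a8 and S100a9, which encode the subunits of calprotectin, the most abundant cytosolic protein pair of neutrophils, stood at 122907 ± 21803 and 126147 ± 19058 CPM. The progenitors had 871 ± 336 and 259 ± 145 CPM. Because this load lowers the CPM of every other gene, each direction below was also checked with the 6 genes left out of the totals. Among 752 genes with at least 200 CPM on either side, 153 were higher and 531 lower in all 11 libraries before that correction.

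All 16 secondary granule genes on the list were higher in Camp/Ngp cells than in progenitors in 11 of 11 libraries. Camp, on chromosome 9 at 109847377 to 109849456 (RefSeq, GRCm38.p6), reached 42682 ± 5459 CPM, and Ngp, neutrophilic granule protein, on the same chromosome at 110419808 to 110423012, reached 32087 ± 3829 CPM. Both had been used to choose the cells. Ltf, which encodes the iron-binding lactoferrin (chromosome 9, 111019292 to 111042766), was not used. In MxCre replicates 1 to 3 it was at 4695, 5870 and 5909 CPM, in Dnmt3a replicates 3 and 4 at 3478 and 7274, in Tnfr1KO-labelled replicates 1 to 3 at 4904, 3864 and 5890, and in Tnfr2KO replicates 1, 3 and 4 at 4936, 4943 and 3313. The 4 groups overlapped, and the highest and the second lowest value both came from Dnmt3a. The progenitors had 0.970 ± 1.35 CPM of Ltf.

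Other granule genes differed in how even they were between libraries. Lcn2, lipocalin 2, which binds bacterial siderophores (chromosome 2, 32384637 to 32387739), was at 11179 ± 1733 CPM and never below 8502. Chil3, a chitinase-like protein, was at 5389 ± 569 CPM, and Lyz2, lysozyme, at 7397 ± 1218. Cd177, a surface glycoprotein of neutrophils, was at 598 ± 134 CPM against 0.795 ± 0.539 in progenitors. Mmp8, the neutrophil collagenase, was low and uneven, at 240 ± 159 CPM with a range of 84.9 to 517. Olfm4, olfactomedin 4, was also uneven, at 56.3 ± 32.7 CPM.

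Primary granule genes were lower. Of 10 listed, 8 were below the progenitors in all 11 libraries, and those 8 stayed below in all 11 when the 6 leading genes were left out of the totals. Elane, neutrophil elastase, was at 3156 ± 1506 CPM against 9024 ± 971, and Mpo, myeloperoxidase, at 1430 ± 698 against 7262 ± 802; both had been used to choose the progenitors. Ctsg, cathepsin G, and Prtn3, proteinase 3, had not, and were at 829 ± 439 against 5868 ± 530 CPM and at 2455 ± 1152 against 8211 ± 673 CPM. The mean log2 ratios (10 CPM added) were -3.04 for Ctsg, -2.51 for Mpo, -1.88 for Prtn3 and -1.66 for Elane. These are ratios of sums over uneven cells, since 788 Camp/Ngp cells had no Elane UMI and 297 (17.1%) had at least 10. Elane was lowest in Tnfr1KO-labelled replicate 3 (1004 CPM) and highest in Tnfr2KO replicate 4 (6492 CPM). The exceptions were Igsf6, higher in 11 libraries, and Clec12a, an inhibitory lectin receptor, lower in 7 but higher in 11 without the 6 leading genes in the totals.

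**Figure D2:**
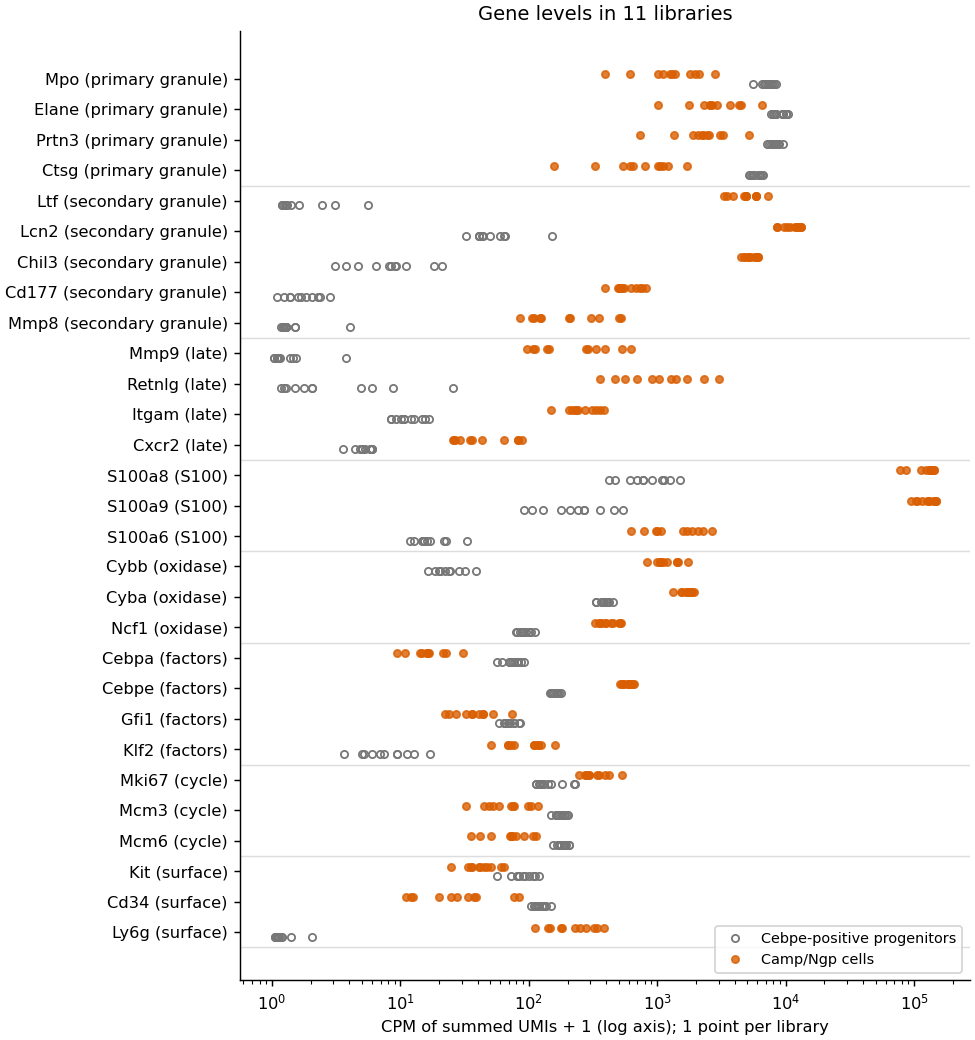
CPM + 1 of selected genes (log x axis) in Camp/Ngp cells (orange) and Cebpe-positive progenitors (grey rings), with 1 point for each of 11 libraries and genes grouped by role. Ltf, Cd177 and Ly6g lie apart by over 100-fold, Mpo and Ctsg lie lower in Camp/Ngp cells, and Mki67 and the MCM genes go in opposite directions.

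Genes of the last granule wave given here had lower mean levels than Lcn2, Chil3 and Lyz2. Wfdc21, listed with them, came nearest, at 2571 (Dnmt3a replicate 3) to 5568 CPM (Tnfr1KO-labelled replicate 3). It was above Chil3 in MxCre replicate 3 (5302 against 5220 CPM) and in Tnfr2KO replicate 3 (5010 against 4522). Less abundant secondary granule genes, Cd177, Mmp8 and Olfm4, had lower means than the late gene Retnlg. Of 21 measured genes of gelatinase granules, secretory vesicles and late neutrophils, 11 were higher than in progenitors in all 11 libraries and 1 (Clec4d) was lower in all, though in 10 without the 6 leading genes in the totals. Mmp9, gelatinase B, was at 276 ± 181 CPM, with 95.1 CPM in Tnfr2KO replicate 4 and 623 in MxCre replicate 3. Retnlg, a resistin-like secreted protein of neutrophils, was at 1249 ± 828 CPM and ranged from 356 (Tnfr2KO replicate 1) to 3008 (MxCre replicate 3). Cxcr2, the chemokine receptor by which mature neutrophils leave the marrow, was at 47.9 ± 25.2 CPM against 4.18 ± 0.751. Il1b, the interleukin 1 beta gene, was at 2.05 ± 3.85 CPM and higher in 5 libraries only. Csf3r, the G-CSF receptor, was closer to progenitors (57.8 ± 12.7 against 43.6 ± 6.50 CPM), higher in 10 libraries. These values have the 6 leading genes in the totals, which lower its CPM in Camp/Ngp cells.

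Genes of the NADPH oxidase, the enzyme of the respiratory burst, were higher in 11 of 11 libraries for each member given here. The largest ratio was that of Cybb, the catalytic membrane subunit, at 1211 ± 265 CPM against 23.1 ± 6.61, while its partner Cyba was already at 389 ± 37.0 CPM in progenitors and reached 1696 ± 172. The cytosolic subunit genes Ncf1 and Ncf4 were at 419 and 384 CPM against 91.2 and 82.6, and the GTPase Rac2 was at 976 ± 92.3 against 382 ± 43.6. Among the S100 and cytosolic genes, 7 of 8 were higher in all libraries. S100a4 was the exception, at 4.40 ± 5.78 CPM.

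Of 14 myeloid transcription factors listed, 6 were higher and 3 lower than in progenitors in all 11 libraries. Cebpe, whose product drives secondary granule genes, was at 586 ± 47.1 CPM in Camp/Ngp cells and at 159 ± 10.1 in progenitors that had been chosen to have it. Cebpd, Cebpb, Spi1 (PU.1), Klf2 and Ets1 were higher in all 11 libraries too. Klf2, a quiescence factor of leukocytes, was at 97.0 ± 32.8 against 7.52 ± 3.92 CPM. Cebpa, the factor of early granulocyte commitment, was at 16.2 ± 5.95 against 74.8 ± 10.5 CPM, lower in 11 libraries. Gfi1 (38.4 ± 14.6 against 70.4 ± 8.50 CPM) and Irf8, a monocyte and dendritic cell factor (22.3 ± 19.8 against 67.7 ± 13.4 CPM), were lower in 11 libraries as well, but without the 6 leading genes in the totals Gfi1 was higher in 3 and Irf8 in 2.

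Cell cycle genes did not move together. Of 25 listed, 10 were higher and 9 lower in all 11 libraries. Those higher act in mitosis or late in the cycle, such as Mki67 (336 ± 84.2 against 149 ± 42.8 CPM), Top2a (405 ± 74.8 against 294 ± 42.0), Cenpf and Ube2c, which targets mitotic cyclins for destruction. Those lower included all 6 listed genes of the MCM helicase that licenses replication origins, such as Mcm6 (72.8 ± 24.8 against 184 ± 15.8 CPM) and Mcm7 (87.6 ± 17.6 against 172 ± 8.13). Without the 6 leading genes in the totals, Mcm3, Mcm6 and Mcm7 were still lower in all 11 libraries, Mcm2 and Mcm5 in 10 and Mcm4 in 9. The other 3 lower genes, Stmn1, Pcna and Tyms, were then lower in only 5, 7 and 2 libraries.

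Surface genes differed as well. Ly6g, the antigen of antibody clone 1A8 on mouse neutrophils, was at 231 ± 90.0 CPM against 0.220 ± 0.287 in progenitors, and Itgam, the CD11b chain, at 266 ± 71.8 against 10.8 ± 2.88. Kit, the receptor on which the cells were sorted, was lower than in progenitors in all 11 libraries, at 42.6 ± 11.6 against 90.0 ± 18.6 CPM, and in 10 without the 6 leading genes in the totals. Cd34 was at 33.4 ± 24.8 against 122 ± 13.6, lower in 11 either way. Each of the 14 libraries had Kit UMIs in its summed Camp/Ngp cells, from 2 in Dnmt3a replicate 2 to 279 in Dnmt3a replicate 4. Of 20 surface and cytokine receptor genes, 9 were higher and 5 lower in all 11 libraries. The myeloid receptors Cd33, Siglece and Ceacam1 were among the higher, with Cd33 at 77.9 ± 28.5 against 1.51 ± 0.426 CPM. The interferon gamma receptor gene Ifngr1 (108 ± 31.9 against 316 ± 42.5 CPM) and the Fc receptor gene Fcgr3 (105 ± 19.4 against 172 ± 41.5) were among the lower, but without the 6 leading genes in the totals Fcgr3 was higher in 5 libraries.

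The 15 genes of lowest ratio, among those of at least 200 CPM and the same direction in every library, were Ctsg, Calr, Mpo, Mif, Srm, Lgals1, Pdcd4, Sdf2l1, Pdia6, Phgdh, C1qbp, Nme2, Hspe1, Ly6e and Cst7. All 15 were still lower in every library when the 6 leading genes were left out of the totals. Calr, Sdf2l1 and Pdia6 act in folding in the endoplasmic reticulum, and Calr was at 321 ± 129 against 2002 ± 174 CPM. Srm makes spermidine, Phgdh starts serine synthesis and Hspe1 is a mitochondrial chaperonin, at 41.7 ± 20.2, 68.2 ± 35.7 and 123 ± 50.4 CPM. At the other end, beside the genes above, stood Ifitm6 (1160 ± 434 against 2.50 ± 0.775 CPM), Wfdc21 (4458 ± 994 against 169 ± 62.4) and Chil1 (277 ± 96.9 against 0.563 ± 0.773). Most abundant outside these groups were Tmsb4x, thymosin beta 4, at 16883 ± 2557 CPM and Actb, beta actin, at 6702 ± 917, both higher than in progenitors in 11 libraries.

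Of 24 genes on the TNF pathway and NF-kB target list, 4 were higher and 3 lower than in progenitors in all 11 libraries, although one of the 3, Nfkb1, was higher in 9 without the 6 leading genes in the totals. Tnf itself, the ligand, was at 12.4 ± 5.27 CPM against 1.95 ± 0.716, and Nfkbia, the inhibitor that NF-kB induces, at 137 ± 30.6 against 49.6 ± 36.9; both were higher in 11 libraries. Sod2, the mitochondrial superoxide dismutase, was lower in 11 (47.0 ± 13.7 against 133 ± 7.77 CPM). The receptor gene Tnfrsf1a was at 61.7 ± 10.6 against 55.2 ± 10.9 CPM and Tnfrsf1b at 8.40 ± 3.79 against 14.5 ± 6.98. Among interferon response genes, Ifitm3, a membrane protein that restricts viral entry, was at 412 against 165 CPM and higher in 11 libraries, while Ly6e was at 120 against 557 and lower in 11. Among the DNA methylation genes, Dnmt1, Dnmt3a and Dnmt3b were lower in all 11 libraries, with Dnmt3a at 10.8 ± 2.59 against 22.4 ± 4.50 CPM. Without the 6 leading genes in the totals, Dnmt3a was higher in 2 libraries and Dnmt1 in 5, while Dnmt3b stayed lower in 11.

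Markers of other cell types were mostly low. The summed level of the 10 monocyte and macrophage markers was 69.6 to 215 CPM in Camp/Ngp cells, against 200 to 287 in progenitors, and was below them in all 11 libraries, but in 8 without the 6 leading genes in the totals. Of these 10 markers, 1 was higher and 5 lower in all 11 libraries with those genes in the totals. Vcam1 held 62.6 of the 79.8 CPM in MxCre replicate 3 and 21.9 of the 99.7 CPM in Tnfr2KO replicate 3. The 4 eosinophil markers summed to 0 to 3.91 CPM, with Epx at 0 everywhere. The 8 B-lymphoid markers summed to 5.03 to 20.4 CPM, with Cd79a at 0 by the rule. Over the 7 dendritic cell markers the sum was 31.3 to 170 CPM with Siglech at 0, and over the 8 lymphoid markers of T, NK and innate cells it was 147 to 505 CPM with Gzma and Klrd1 at 0. Nearly all of the last sum was Nkg7 (269 ± 94.7 CPM), a cytotoxic granule gene that the progenitors held at 988 ± 73.6 CPM. Of those 8 markers, 1 was higher and 1 lower than in progenitors in all 11 libraries with the 6 leading genes in the totals. Megakaryocyte markers summed to 2.12 to 95.7 CPM, above the progenitors in 3 libraries and in 7 without the 6 leading genes in the totals. The sums of basophil and mast cell markers were 7.07 to 50.9 CPM and those of HSC and MPP markers 47.3 to 157 CPM, both below the progenitors in all 11 libraries with and without those genes.

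Erythroid markers were the exception. The 9 erythroid markers summed to 2864, 1729 and 9416 CPM in MxCre replicates 1 to 3, to 104 and 6257 in Dnmt3a replicates 3 and 4, to 497, 374 and 9989 in Tnfr1KO-labelled replicates 1 to 3, and to 39.2, 79.6 and 66.8 in Tnfr2KO replicates 1, 3 and 4. In this sum the 3 Tnfr2KO libraries lay below the other 8, but the hemoglobin gene Hba-a1 did not keep that order. Of the 374 CPM in Tnfr1KO-labelled replicate 2, Car1 made up 309. Hba-a1 was at 2.15 CPM there and at 3.91 in Dnmt3a replicate 3, against 4.23, 2.78 and 11.8 in Tnfr2KO replicates 1, 3 and 4. Of all 1738 cells, 18 had at least 100 UMIs of the 4 hemoglobin genes, which share near-identical copies, and 10 of these were in Dnmt3a replicate 4. A single cell held 97.6% of the hemoglobin UMIs of Camp/Ngp cells in MxCre replicate 1, 94.9% in MxCre replicate 2 and 94.7% in Tnfr1KO-labelled replicate 1. The median cell had 0 or 1 hemoglobin UMI in all libraries but Dnmt3a replicate 1 (0.5) and Dnmt3a replicate 4 (5).

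Doublets, droplets with 2 cells, were not removed by the rule. A caller based on simulated doublets marked 183 of the cells (10.5%), against 5.34% of all kept cells. The 297 cells with at least 10 Elane UMIs made up 17.1% of the set. They had a median of 25682 UMIs per cell, and 42.4% were called doublets. The 653 cells with 1 to 9 Elane UMIs had a median of 11169 UMIs and 6.58% calls, and the 788 cells without Elane had 7744.5 UMIs (median) and 1.78% calls.

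The cells were next compared among themselves. Each with at least 3000 UMIs was thinned to 3000 UMIs, which left out 64 of the 1738, and was put in a range by its thinned Ltf count. In the 11 libraries with at least 20 Camp/Ngp cells, 54.8% (Tnfr2KO replicate 4) to 85.0% (Dnmt3a replicate 4) had at least 10 Ltf UMIs. The share with 0 Ltf UMIs was 3.63% to 21.9% in those libraries. Among progenitors thinned alike, at most 1.43% had any Ltf UMI, and among erythroid cells at most 4.29%, both in Dnmt3a replicate 4. Values for the middle and highest range average over the 11 libraries with at least 5 cells in both, and those for 0 Ltf over the 10 of these with at least 5 such cells.

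Cells with more Ltf had fewer transcripts of the primary granule genes given here. Of 13 secondary granule genes other than Camp, Ngp and Ltf, 6 were higher in the highest range than in the middle one in all 11 libraries, Fcnb was lower in all and 6 were mixed. Elane was at 35.3 UMIs per 3000 in cells without Ltf (10 libraries), at 7.52 ± 1.90 in those with 1 to 9 Ltf UMIs and at 0.465 ± 0.372 in those with 10 or more (11 libraries), and was lower in the highest range than in the middle one in 11 of 11 libraries. Mpo, Prtn3, Ctsg and Calr had the same order in all 11. With the cells called doublets removed, Elane was at 41.5 ± 10.7 (6 libraries), 4.55 ± 2.15 (10 libraries) and 0.386 ± 0.300 (13 libraries) in the 3 ranges, each over the libraries with at least 5 cells in that range, which are not the same sets. Ctsg was then at 0.309 ± 0.244 in the middle and 0.190 ± 0.145 in the highest range, a gap smaller than the spread between libraries. Lcn2 was at 6.52, 23.1 ± 4.70 and 49.8 ± 4.16 UMIs per 3000 in the 3 ranges, and Lcn2, Chil3, Lyz2, Cybb, Itgam and Ly6g were each higher in the highest range than in the middle one in 11 libraries. Ngp, which the rule used, was at 21.6, 67.8 ± 15.6 and 134 ± 8.66. Fcnb, ficolin B, a pattern recognition lectin of immature granulocytes, was at 5.32, 3.02 ± 0.868 and 1.78 ± 0.363, lower in the highest range than in the middle one in 11 libraries. Retnlg was also lower in the highest Ltf range than in the middle one, in 10 of 11 libraries (7.23 ± 2.87 against 20.9 ± 16.8), although its rank correlation with Ltf across cells, given next, was positive.

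Across single cells of 1 library, Ltf and the summed gelatinase and late genes had Spearman correlations of 0.31 to 0.69 in the 10 libraries with at least 50 thinned cells, and Ltf and Elane of -0.75 to -0.36. Wfdc21 alone carried much of that late gene list. In the summed cells it held 4663 of 6573 CPM in Tnfr2KO replicate 1 and 3663 of 8921 CPM in Dnmt3a replicate 4. For Ltf and Retnlg the correlations were 0.054 to 0.30 (median 0.21), positive in all 10. They took in the cells without Ltf, which the comparison of the middle and highest Ltf ranges left out. Camp and Ngp, both used by the rule, correlated at 0.37 to 0.83. Cells of a library share its depth and its free RNA, so these are descriptions only.

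A second split used the cell cycle genes Mki67 and Top2a. An Mki67 or Top2a UMI was present after thinning in 43.4% (Dnmt3a replicate 4) to 71.4% (Tnfr1KO-labelled replicate 1) of Camp/Ngp cells in those 11 libraries, and in 51.0% to 68.1% of progenitors. How much free RNA of these 2 genes adds to such shares was not measured. In MxCre replicates 1 to 3 it was 49.5%, 49.5% and 44.6%, in Dnmt3a replicates 3 and 4 it was 68.8% and 43.4%, in Tnfr1KO-labelled replicates 1 to 3 it was 71.4%, 62.1% and 49.4%, and in Tnfr2KO replicates 1, 3 and 4 it was 63.9%, 50.6% and 56.2%. The first 2 groups overlapped, as did the 3 groups with the Dnmt3a allele. Tnfr2KO lay above MxCre, a difference outside the 4 comparisons that was not tested.

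Cells with and without such a UMI differed in late genes, and also in Mmp8 of the secondary granule list and in S100a6 and S100a11 (12 libraries). Mmp8 was at 0.131 ± 0.153 UMIs per 3000 in cells with an Mki67 or Top2a UMI and at 3.61 ± 1.53 in cells without, and Mmp9 at 0.233 ± 0.189 and 3.71 ± 1.55, each lower in 12 of 12 libraries. Cxcr2, Itgam, Ly6g, S100a6 and S100a11 were lower in 12 of 12 too, and Retnlg in 11 (1.19 ± 1.41 against 17.6 ± 8.09). With cells called doublets removed, Mmp8 was at 0.112 ± 0.166 against 3.83 ± 1.56 and lower in 12 of 12 libraries, and Mmp9, Ly6g, Retnlg, Ltf, Chil3 and Fcnb kept the library counts given here. Klf2 was lower in 11 libraries. Higher in cells with an Mki67 or Top2a UMI were Chil3 (22.3 ± 4.27 against 12.3 ± 1.48, 12 libraries), Camp, which the rule used (151 ± 18.5 against 123 ± 15.95, 11 libraries), Fcnb (3.17 ± 0.742 against 1.54 ± 0.831, 11 libraries) and Cebpe (10 libraries). Ltf was lower in 12 of 12 (16.6 ± 3.67 against 25.3 ± 4.85), and Ngp, also used by the rule, did not separate them, being higher in 6 libraries and lower in 6.

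**Figure D3:**
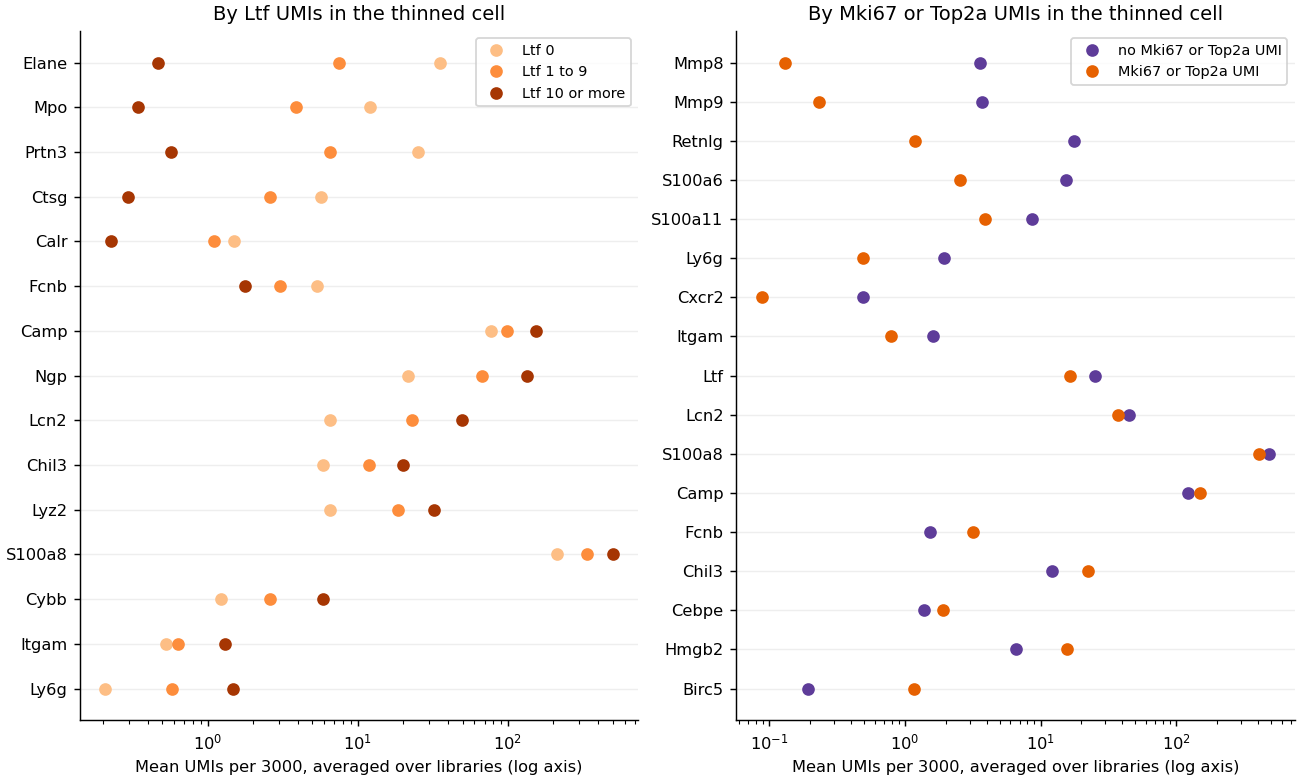
Mean UMIs per 3000 (log x axis), averaged over libraries, of genes in Camp/Ngp cells split by thinned Ltf UMIs (left, 3 ranges) and by the presence of an Mki67 or Top2a UMI (right). Elane is at 35.3 in cells without Ltf and at 0.465 in the highest Ltf range, and Mmp8 is at 0.131 in cells with an Mki67 or Top2a UMI against 3.61 in cells without.

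Between genotypes, the share of Camp/Ngp cells differed by less than the spread between mice. In MxCre replicates 1 to 3 they were 1.62%, 7.89% and 2.04% of kept cells. In Dnmt3a replicates 1 to 4 they were 0.307%, 0.327%, 0.557% and 10.6%. The Tnfr1KO-labelled replicates 1 to 3 had 1.48%, 1.82% and 2.90%, and Tnfr2KO replicates 1 to 4 had 0.955%, 0.305%, 3.76% and 1.13%. Dnmt3a held both the highest value and 3 of the 4 lowest, and all 4 groups overlapped in the 4 comparisons made. Replicate 4 of Dnmt3a alone gave 604 of the 1738 cells (34.8%), with a 95% exact binomial interval of 9.84% to 11.5% for its share, which covers counting error only.

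Group means were 3.85% ± 3.51 in MxCre (SD, n = 3), 2.96% ± 5.12 in Dnmt3a (n = 4), 2.06% ± 0.742 in Tnfr1KO-labelled (n = 3) and 1.54% ± 1.53 in Tnfr2KO mice (n = 4). The exact two-sided permutation p was 0.743 for Dnmt3a against MxCre, 0.914 for Tnfr1KO-labelled against Dnmt3a, 0.914 for Tnfr2KO against Dnmt3a and 0.629 for Tnfr2KO against Tnfr1KO-labelled mice. All 4 were 0.914 after Benjamini-Hochberg adjustment over the 4 comparisons. Only Tnfr2KO against Dnmt3a, with n = 4 in each group, could reach a p as low as 0.0286. The other comparisons set 3 mice against 4. There the two-sided p, the doubled smaller tail, could not fall low enough to pass, so these tests could not have found a difference.

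Replicate 4 set the direction of both comparisons of a receptor genotype with Dnmt3a. Without it, the Tnfr1KO-labelled mean was 1.67 percentage points above that of Dnmt3a (exact permutation p = 0.1, the smallest that 3 against 3 mice allow) and the Tnfr2KO mean 1.14 points above it (exact permutation p = 0.229), where with it they were 0.891 and 1.42 points below. The 3 remaining Dnmt3a mice lay below all 3 MxCre mice and all 3 Tnfr1KO-labelled mice, but not below Tnfr2KO replicate 2. The difference from MxCre grew from -0.894 to -3.45 points (exact permutation p = 0.1, again the smallest possible). MxCre replicate 2 mattered too, since without it the Dnmt3a mean was 1.13 points above that of MxCre (exact permutation p = 0.8).

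Set against the granulocyte progenitors of the same mouse, the pattern was similar. Per 100 kept cells with at least 10 Mpo and 10 Elane UMIs and no Cd79a (both Cebpe states), MxCre replicates 1 to 3 had 4.74, 22.8 and 10.2 Camp/Ngp cells, Dnmt3a replicates 1 to 4 had 0.695, 0.846, 0.971 and 52.5, Tnfr1KO-labelled replicates 1 to 3 had 2.46, 5.45 and 5.66, and Tnfr2KO replicates 1 to 4 had 1.79, 0.734, 6.82 and 2.10. Again 3 Dnmt3a mice were low and the other was the highest of all 14. The exact two-sided permutation p was 0.914, 0.914, 0.943 and 0.457 for the 4 comparisons in the order above, and 0.943 for each after adjustment. Without Dnmt3a replicate 4 the difference of Dnmt3a from MxCre turned from 1.19 to -11.7 Camp/Ngp cells per 100 progenitors, with an exact permutation p of 0.1. The comparisons with Dnmt3a share its mice.

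**Figure D4:**
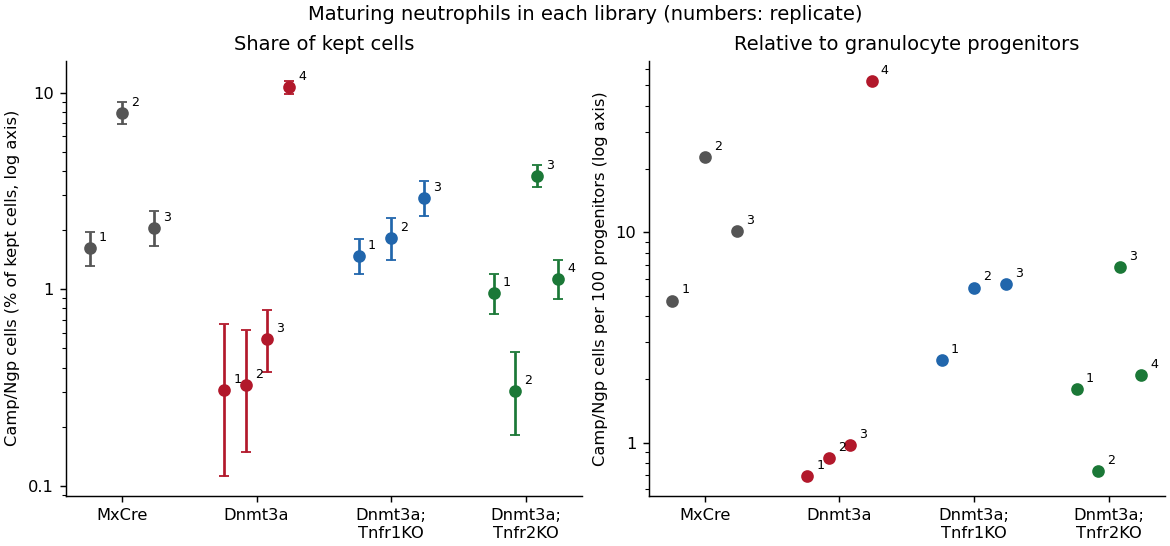
Camp/Ngp cells as a percentage of kept cells (left, with 95% exact binomial intervals) and per 100 granulocyte progenitors (right), both on log axes, with 1 point per mouse labelled by its replicate number. Dnmt3a replicate 4 stands at 10.6% and at 52.5, and the other 3 Dnmt3a mice at 0.307% to 0.557% and at 0.695 to 0.971.

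Expression within the cells was compared between genotypes on UMIs summed per mouse over the 11 libraries with at least 20 of the cells (MxCre replicates 1 to 3, Dnmt3a 3 and 4, Tnfr1KO-labelled 1 to 3, Tnfr2KO 1, 3 and 4), which leaves 2 Dnmt3a mice. A gene was called at a Benjamini-Hochberg adjusted p below 0.05 in edgeR's quasi-likelihood test. Of 7867 genes tested, 0 were called in Dnmt3a against MxCre (0%) and 0 in Tnfr1KO-labelled against Dnmt3a (0%). At an unadjusted p below 0.05, 455 genes (5.78%) and 462 genes (5.87%) passed, and DESeq2 called 16 genes in each. In Tnfr2KO against Dnmt3a 1 gene was called (0.0127%), with 774 (9.84%) at an unadjusted p below 0.05 and 29 calls by DESeq2. In Tnfr2KO against Tnfr1KO-labelled cells 1 gene was called (0.0127%), with 594 (7.55%) unadjusted and 0 calls by DESeq2. The counts rose to between 74 and 124 in the 4 comparisons when genes of low count were kept in.

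Both calls were of the same gene, Gm47283 (ENSMUSG00000096768), a predicted gene for which no function is given here. It was at 119, 97.3 and 139 CPM in Tnfr2KO replicates 1, 3 and 4, at 30.1 and 20.8 in Dnmt3a replicates 3 and 4, at 41.5, 48.4 and 37.5 in Tnfr1KO-labelled replicates 1 to 3, and at 54.5, 37.9 and 34.2 in MxCre replicates 1 to 3 (TMM-scaled CPM). All 3 Tnfr2KO libraries lay above the other 8. The log2 fold change was 2.35 (SE 0.264) against Dnmt3a with an adjusted p of 0.000927 in edgeR's test, and 1.47 (SE 0.216) against Tnfr1KO-labelled cells with an adjusted p of 0.0296. The calls were lost under some alternatives. With cells called doublets removed, the log2 fold changes were 2.14 and 0.99 and edgeR's adjusted p was 0.400 and 1.00. Leaving out Dnmt3a replicate 4 gave a log2 fold change of 1.98 and an adjusted p of 0.199 in the first comparison, with 1 Dnmt3a library left that was assumed to vary like the other groups. Whichever library of the groups compared was left out, the log2 fold change was 1.98 to 2.50 in the first and 1.33 to 1.60 in the second. DESeq2 gave Gm47283 no adjusted p. Over the 14 other alternatives, edgeR's adjusted p ranged from 1.03e-15 to 0.400 in the first comparison and from 7.4e-09 to 1.00 in the second. In the second, the adjusted p was 0.0556 to 0.218 when any of Tnfr1KO-labelled replicates 1, 2 or 3 or Tnfr2KO replicates 1 or 4 was left out.

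Gm47283 was measured in the Cebpe-positive progenitors of the same mice as well, outside the cells tested. There it was at 207, 398, 277 and 317 CPM in Tnfr2KO replicates 1 to 4, at 81.3 to 87.9 in the 4 Dnmt3a mice, at 121, 174 and 207 in Tnfr1KO-labelled replicates 1 to 3 and at 156 to 183 in the 3 MxCre mice. The Tnfr2KO mice were the highest there too, with replicate 1 (207.4 CPM) just above Tnfr1KO-labelled replicate 3 (206.9).

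The targeted genes were at low counts. Tnfrsf1b (chromosome 4, 145212368 to 145246870) had 2, 14 and 6 UMIs in the summed cells of Tnfr2KO replicates 1, 3 and 4, or 2.09, 5.26 and 4.38 TMM-scaled CPM, against 11.7 and 10.3 in Dnmt3a replicates 3 and 4, 5.19, 8.42 and 9.38 in Tnfr1KO-labelled replicates 1 to 3 and 10.5 to 14.1 in MxCre. Tnfr2KO lay below Dnmt3a and MxCre. On this scale it overlapped the Tnfr1KO-labelled values, but without TMM scaling its highest value (4.86 CPM) was just under their lowest (4.90 CPM). Over all genes tested, CPM did not overlap between the groups for 22.7%, 18%, 23.9% and 12.8% in the 4 comparisons in the order above. Its log2 fold change against Dnmt3a was -1.29 (SE 0.389) with an adjusted p of 0.303 in edgeR's test, which did not pass (0.186 to 0.992 over 14 alternatives). Tnfrsf1a had a log2 fold change of -0.38 (SE 0.194) in Tnfr1KO-labelled against Dnmt3a cells, with an adjusted p of 0.833 in the same test. For Dnmt3a and Tnf the log2 fold changes were between -0.60 and 0.42 over the 4 comparisons, with adjusted p from 0.706 to 1.00 by edgeR.

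**Figure D5:**
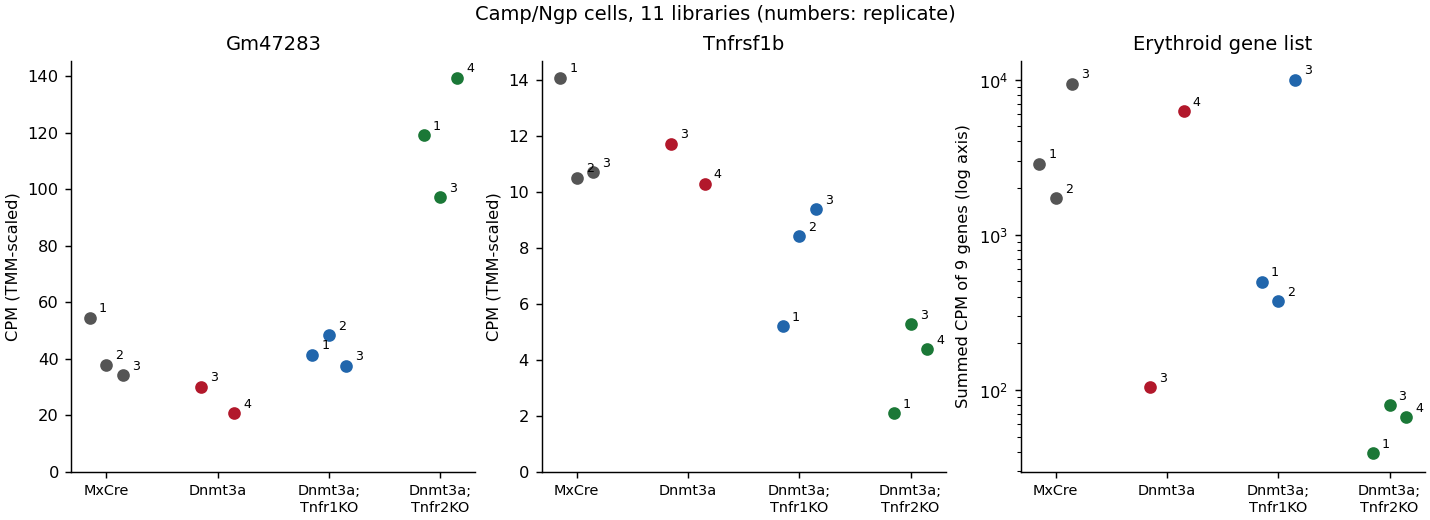
Levels in Camp/Ngp cells of 11 libraries by genotype, with 1 point per mouse labelled by replicate: TMM-scaled CPM of Gm47283 and Tnfrsf1b on linear axes from 0, and the summed CPM of 9 erythroid genes on a log axis. Gm47283 is at 97.3 to 139 in Tnfr2KO and at most 54.5 elsewhere, and the erythroid sum spans 39.2 to 9989.

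No granule, oxidase, transcription factor, cell cycle or TNF list had a called gene in any of the 4 comparisons, where 0% to 0.0127% of all genes were called. The secondary granule list (14 of 16 genes tested, since Camp and Ngp were left out) had median log2 fold changes of -0.22, 0.06, -0.05 and -0.21 in the 4 comparisons in the order given, beside medians of 0.02, -0.02, -0.01 and 0.00 over all genes tested. For the primary granule list (10 tested) they were 0.06, -0.18, 0.39 and 0.57, and 3 of the 10 were at an unadjusted p below 0.05, all higher, in Tnfr2KO against Tnfr1KO-labelled cells, beside 7.55% of all genes. The TNF pathway and NF-kB list (16 of 24 tested) had medians of 0.15, -0.39, -0.22 and 0.13, with 1, 4, 3 and 1 genes at an unadjusted p below 0.05, beside 5.78%, 5.87%, 9.84% and 7.55% of all genes tested. For the S100 and cytosolic list (8 tested) the medians were -0.43, 0.11, 0.07 and -0.0016. It had 4, 2, 1 and 0 genes at an unadjusted p below 0.05, and none called. S100a8 had a log2 fold change of -0.71 (SE 0.243) in Dnmt3a against MxCre, with an adjusted p of 0.688 by edgeR. Only Dnmt3a replicates 3 and 4 were in that fit. The erythroid list (9 tested) had medians of -0.59, 0.45, -5.92 and -6.19, and its lowest adjusted p was 0.303 in Tnfr2KO against Dnmt3a. The -5.92 rested on Dnmt3a replicate 4, without which the median was 0 and the other 2 comparisons with Dnmt3a had medians of -6.80 (against MxCre) and 6.63 (Tnfr1KO-labelled), with 1 Dnmt3a library left. Without Tnfr1KO-labelled replicate 3 (7 genes tested) the -6.19 was -2.77 and the 0.45 was -3.18. Hba-a1, an alpha globin gene, was at 982 TMM-scaled CPM in Dnmt3a replicate 4 and at 3.34 in Dnmt3a replicate 3, against 4.18, 3.004 and 10.9 in Tnfr2KO replicates 1, 3 and 4. Of the Tnfr1KO-labelled replicates, 1 and 3 were at 113 and 1974 and replicate 2 was at 2.10, below all 3 Tnfr2KO values. The top cell held 3 hemoglobin UMIs (15.8% of those in Camp/Ngp cells) in Dnmt3a replicate 3 and 9306 (17.4%) in Dnmt3a replicate 4. In Tnfr1KO-labelled replicates 1 to 3 it held 571 (94.7%), 4 (20%) and 5387 (44.2%). The part of such cells in the difference was not tested.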

How the data were processed

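The deposited matrices hold whole-number UMI counts per gene (32285 genes) and barcode, without normalization, made with Cell Ranger 6.0.0, per the submitters' processing notes, which also name bcl2fastq 2.20.0.422 and the builds GRCm38 and mm10. Reads were not reprocessed. Camp/Ngp cells were chosen by the thresholds given above, and their UMIs were summed per mouse. Sums were tested with edgeR 4.0.16 (quasi-likelihood, TMM, filterByExpr, 4 groups in a single fit, without Camp, Ngp and Cd79a), with DESeq2 1.42.0 as an alternative (R 4.3.3), and the procedure was tested on simulated data. Shares were compared by exact two-sided permutation over mice (scipy 1.17.1). Doublets were called from simulated doublets (0.8% per 1000 cells, 30 neighbours).

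Genes were named as follows: up to 10 called genes per comparison whose groups do not overlap and of which either reaches 20 CPM, Tnfrsf1a, Tnfrsf1b, Dnmt3a and Tnf, members of 20 gene lists (238 of 241 genes in the files), the 20 genes of highest CPM outside mitochondrial and ribosomal protein genes, and the 15 highest and 15 lowest ratios to progenitors. The cells and lists were chosen with earlier results of these data known. Gene positions are from RefSeq (GRCm38.p6), matched by symbol for 258 of 261 genes. Precision is limited by 6 to 604 cells and 74418 to 8595973 summed UMIs per mouse over all 14 mice. The 11 libraries of the main expression fit had at least 511182 summed UMIs. Some listed genes are not reported here.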

Additional observations from a re-analysis of the deposited data

Results flagged for a closer look

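In Dnmt3a replicate 4, 10.6% of kept cells were Camp/Ngp cells, against 0.307% to 0.557% in the other 3 Dnmt3a mice. It was marked because the gap to its nearest neighbour was 0.976 of the whole range of the group, above Dixon's limit for 4 samples. The same mouse had 52.5 Camp/Ngp cells per 100 granulocyte progenitors, against 0.695 to 0.971, with a gap of 0.995 of the range. Chance marks about 1 in 20 groups. It also held 48 of the 50 kept cells that had at least 10 UMIs of Camp and of Ngp together with Cd79a, which the rule leaves out and no comparison uses. The other libraries held 0 or 1 such cell. This mouse had 2226 of the 3252 cells with B-lineage transcripts.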

How the results depend on the processing

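No share or ratio comparison passed its test under any alternative, so directions alone are compared. Most of these tests could not have passed, since with fewer than 4 mice in a group the p cannot fall low enough. For those tests, not passing decides nothing. On a log2 scale with 0.5 of a cell added, the difference in the share turned to 1.13 (Tnfr1KO-labelled minus Dnmt3a) and 0.23 (Tnfr2KO minus Dnmt3a), and that in cells per 100 progenitors to -2.09 (Dnmt3a minus MxCre) and 0.81 (Tnfr1KO-labelled minus Dnmt3a). When each mouse was left out in turn, the share differed by -3.45 to 1.13 percentage points (Dnmt3a against MxCre), -1.77 to 1.67 (Tnfr1KO-labelled against Dnmt3a), -2.30 to 1.14 (Tnfr2KO against Dnmt3a) and -1.27 to -0.109 (Tnfr2KO against Tnfr1KO-labelled). Cells per 100 progenitors differed by -11.7 to 6.30, -13.6 to 3.69, -15.3 to 2.02 and -2.98 to -0.956 in that order. The upper ends with Dnmt3a in the second place came without Dnmt3a replicate 4. Dnmt3a against MxCre per 100 progenitors also turned without MxCre replicate 1 (-2.72) or 3 (-0.00577).

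Same-numbered mice did not pair: their deviations correlated at -0.51 to 0.34. With the replicate number as a block, the share of Tnfr1KO-labelled minus Dnmt3a mice was 1.67 points, since Dnmt3a replicate 4 has no partner there, and the called genes were 0, 0, 1 and 0. Under the block Gm47283 had an adjusted p of 0.0917 in Tnfr2KO against Tnfr1KO-labelled cells (edgeR), and log2 fold changes turned in sign for Dnmt3a, to 0.13 (Dnmt3a against MxCre) and -0.10 (Tnfr2KO against Dnmt3a), and for Tnfrsf1a, to 0.034 (Tnfr2KO against Dnmt3a).

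Counts of called genes, in the same order, were 0, 0, 1 and 1. DESeq2 called 16, 16, 29 and 0, and edgeR without a filter on low counts 74, 96, 124 and 108. With only the groups compared in the fit, the first 3 counts were 17, 6 and 3, and with at least 50 cells per library, which leaves Dnmt3a replicate 4 as the only Dnmt3a library, assumed to vary like the other groups, 2, 5 and 6. Chosen after seeing the data, at least 5 cells per library gave 6, 6 and 9. Removing called doublets left 0 in the last 2 comparisons (412 and 279 at an unadjusted p below 0.05), and at least 20 UMIs of Camp and Ngp gave 2 in Tnfr2KO against Dnmt3a. Leaving out each library gave 0 to 3, 0 to 5, 1 to 6 and 0 to 4. Without Dnmt3a replicate 3 or 4, too, 1 Dnmt3a library remained.

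Targeted genes, none of them called, changed sign under some alternatives (log2 fold changes). In Dnmt3a against MxCre, Dnmt3a was 0.019 without a filter, 0.029 with at least 50 cells and 0.081 with at least 5. In Tnfr2KO against Dnmt3a, Tnfrsf1a was 0.14 without doublets and 0.035 with at least 5 cells, and Dnmt3a was -0.023 with at least 5 cells. In Tnfr2KO against Tnfr1KO-labelled cells, Tnf was 0.056 without doublets. With at least 5 cells and no Dnmt3a replicate 4, also chosen after seeing the data, Tnfrsf1a was -0.22 against MxCre, Tnfrsf1a, Tnfrsf1b and Tnf were 0.045, 0.052 and 0.99 in Tnfr1KO-labelled against Dnmt3a cells, Tnfrsf1a, Dnmt3a and Tnf were 0.33, -0.11 and 0.67 in Tnfr2KO against Dnmt3a, and Dnmt3a was 0.17 in Dnmt3a against MxCre. Leaving out each library gave ranges through 0 for Tnfrsf1a (-0.0037 to 0.30), Tnfrsf1b (-0.25 to 0.0073) and Dnmt3a (-0.22 to 0.10) in Dnmt3a against MxCre, for Tnf (-0.42 to 0.72) in Tnfr1KO-labelled against Dnmt3a, for Tnfrsf1a (-0.14 to 0.17), Dnmt3a (-0.035 to 0.24) and Tnf (-0.73 to 0.44) in Tnfr2KO against Dnmt3a, and for Tnf (-0.56 to 0.0065) in Tnfr2KO against Tnfr1KO-labelled cells. DESeq2 gave no adjusted p for Gm47283. Sums of 511182 to 8595973 UMIs per mouse in the main fit, and from 74418 with at least 5 cells per library, limit genes of low count.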
